A study of Mus musculus with 7 samples.

Results

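Brown adipose tissue (BAT) and skeletal muscle were compared across every gene with a name in the deposited expression table, as the log2 ratio of the FPKM of the 2 tissues. Of the 94339 loci of the table, those with a name gave 50226 named genes, and 14141 of these had at least 1 FPKM in BAT or muscle with a value in both. A second group within them, genes high in both tissues, comprised 147 genes with at least 1 FPKM in BAT and in muscle and with the lower of the 2 at least 4-fold above each of the other 5 tissues. FPKM scales fragments to transcript length and to the mapped fragments of the library. Levels are set side by side here between genes and between tissues without correction for what else each library holds. A pseudocount of 0.1 FPKM was added before every ratio.

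The tissues came from wild-type mice of 36 weeks (C57BL/6 in the labels, C57BL/6N in the study's text) on NCD, the control diet, in a study that profiled liver, kidney, visceral (VAT) and subcutaneous (SCAT) adipose tissue, cortex, BAT and skeletal muscle. Strand-specific libraries of rRNA-depleted total RNA were sequenced, with 1 library per tissue. The difference between BAT and muscle therefore has no replicate check, no test was made, and every fold is a description of 1 library beside another. The labels name no particular muscle, and the number of mice behind a library is not given in the sources used here. In such bulk samples, fewer cells of a type and less RNA per cell cannot be told apart.

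Brown fat burns fatty acids to make heat: uncoupling protein 1 lets protons return across the inner mitochondrial membrane without making ATP, and noradrenaline switches the process on through β-adrenergic receptors. Skeletal muscle spends ATP on contraction and calcium pumping, and its fibres range from fast, glycolytic ones to slow, oxidative ones. Both tissues are rich in mitochondria and take up glucose in response to insulin, and brown adipocytes share an embryonic origin with the muscle of the trunk.

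The defining markers matched the labels. Ucp1 stood at 6552 FPKM in BAT and 2.86 in muscle, and reached 10.6 in kidney and at most 0.324 in the other 4 tissues. Ckm, the creatine kinase of muscle, stood at 8592 FPKM in muscle and 166 in BAT. In the GENCODE annotation of GRCm38, Ucp1 lies at chr8:83290352-83298452 and Ckm at chr7:19404776-19422841. The assembled loci that gave these values are longer, at chr8:83165081-83299146 and chr7:19404776-19750483. The strand of a locus was inferred here from the order of loci along each chromosome, not read from the table. By this, Ucp1 has a locus on each strand. The annotated strand gave 5529 FPKM in BAT and 1.41 in muscle, and the locus used here, which had the higher value, lies on the opposite strand. Among the genes given below, the locus used also lies opposite the annotation for Scd2, Elovl6, Otop1, Kcnk3, Zic1, Cfd, Pdp2, Cox8b, Tceal7, Mettl11b, Ky, Gadl1, Myh1, Sln, Tnni1, Myf6, Myod1, Myog, Pax7, Lbx1, Meox2, Asb5, Txlnb, H19, Adrb1, Mstn and Fndc5. The same holds for 2310069B03Rik and Mir365-1. Where the annotated strand alone moves a gene across the 4-fold limit, this is stated. The check covered listed genes and those with the largest ratios or margins, and not 2310069B03Rik or Mir365-1.

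Of the 14141 genes, 1016 (7.18%) were at least 4-fold higher in BAT and 1450 (10.3%) at least 4-fold higher in muscle. The remaining 82.6% lay within 4-fold, and 59.3% within 2-fold. The median log2 ratio of BAT over muscle was -0.11. Among the genes higher in muscle, 693 (47.8%) were also 4-fold above every other tissue, whereas 146 (14.4%) of the genes higher in BAT were. A white fat depot was likewise 4-fold above muscle for 394 (38.8%) of the genes higher in BAT. Protein-coding genes made up 811 of the genes higher in BAT and 1075 of those higher in muscle.

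**Figure D1:**
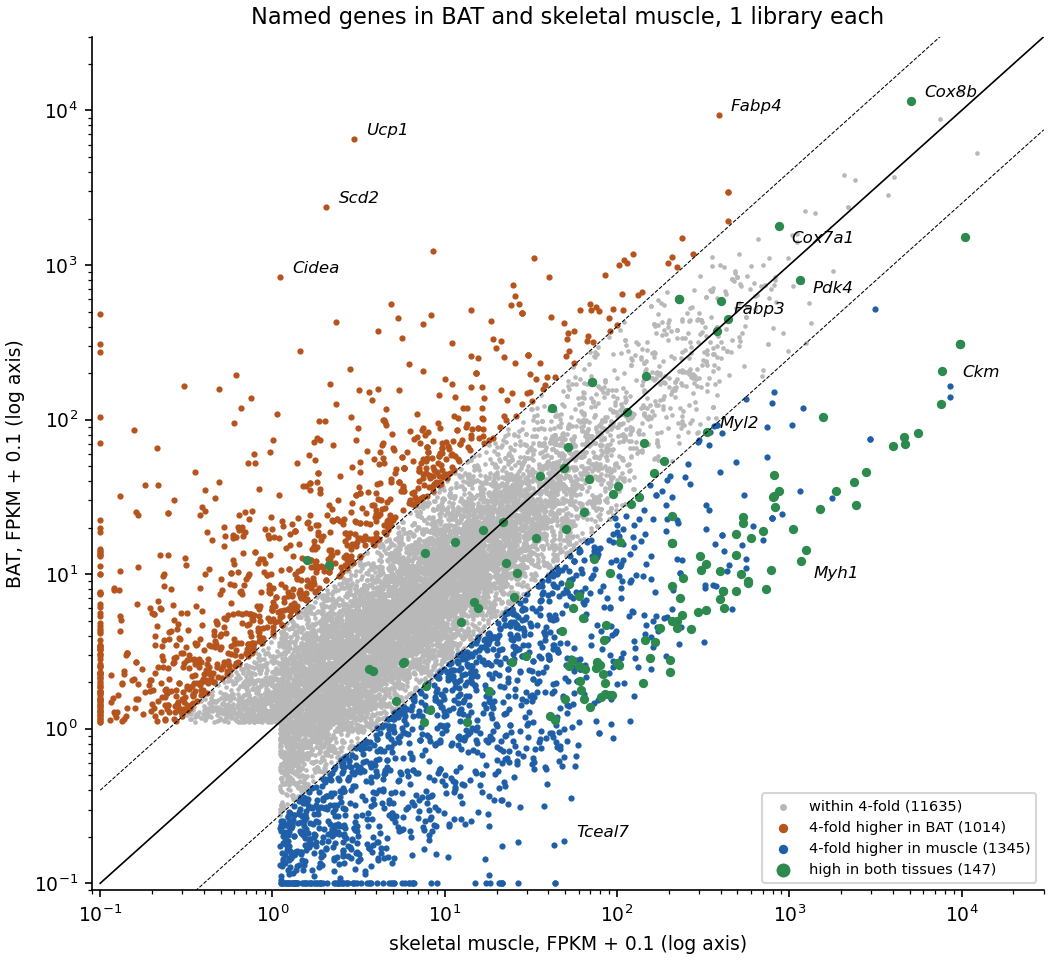
FPKM plus 0.1 of each of the 14141 named genes in skeletal muscle (x axis, log scale) and BAT (y axis, log scale), 1 point per gene and 1 library per tissue. The solid line marks equal values and the dashed lines 4-fold. Orange and blue points are 4-fold higher in BAT or muscle and are not among the 147 genes high in both, which are green. Of these, 40 lie within 4-fold (Cox8b, Cox7a1, Fabp3 and Pdk4 among them), 105 are 4-fold higher in muscle (Myh1 among them) and 2 in BAT.

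Ucp1 came first on the BAT side among protein-coding genes that reached 10 FPKM there, with a log2 ratio of 11.11. Scd2, a desaturase that makes monounsaturated fatty acids, stood at 2371 FPKM in BAT and 1.94 in muscle, and at 1049 and 639 in VAT and SCAT. These are the values of a locus opposite the annotated strand of Scd2, and the locus on that strand gave 3.11 in BAT and 0.933 in muscle, which is within 4-fold. Cidea, a lipid droplet protein of brown adipocytes, stood at 832 in BAT and 1.01 in muscle, with no other tissue above 3.10. Cidea was thus high in BAT alone, while the locus used for Scd2 was high in all 3 fat depots. The fatty acid elongases Elovl3 (165 against 0.208 FPKM) and Elovl6 (194 against 0.513) had log2 ratios of 9.06 and 8.31. Elovl3 was also high in liver, at 65.6. Otop1, a proton channel, stood at 85.5 in BAT and 0.0564 in muscle and was no higher than 0.353 elsewhere. The 10 largest ratios further held Adtrp, a hydrolase of branched fatty acid esters (log2 ratio 8.33), Clstn3 (8.25), Aspg (7.95) and Mrap, an accessory protein of the ACTH receptor (7.69). Of these, Adtrp reached 106, Aspg 27.8 and Mrap 11.9 in liver, and Clstn3 25.6 in cortex. Their BAT levels were 159, 32.1, 37.7 and 65.2.

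The brown adipocyte and thermogenesis list had 26 genes, 21 of which were measured at 1 FPKM or more in either tissue. Of the 21, 18 were 4-fold higher in BAT and none in muscle, against 7.18% and 10.3% of all tested genes, and the median log2 ratio was 5.36. Kcnk3, a potassium channel of brown adipocytes, stood at 95.1 FPKM in BAT and 0.496 in muscle. Acot11, a thioesterase, stood at 71.5 and 1.64. Letmd1, a protein of the mitochondrial membrane, stood at 155 and 3.09. Among transcription factors of the list, Ebf2 was at 11.8 in BAT and 2.84 in muscle, Prdm16 at 2.59 and 0.528, and Zic1, a marker of brown adipocyte precursors, at 2.12 and 0.0162 (log2 ratio 4.25). The 3 genes within 4-fold were Cpt1b, Esrrg (2.65 and 1.80) and Ppargc1a, the coactivator of mitochondrial biogenesis. Ppargc1a stood at 6.20 in BAT and 6.28 in muscle.

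General adipocyte genes were also higher in BAT, but part of this set was not. Of 25 measured genes, 17 were 4-fold higher in BAT and 8 lay within 4-fold, against 7.18% and 82.6% of all tested genes. The median log2 ratio was 3.52. Plin1, the coat of the lipid droplet, stood at 413 FPKM in BAT, 7.41 in muscle, 102 in VAT and 74.8 in SCAT. Fabp4, the fatty acid binding protein of adipocytes, stood at 9367 in BAT and 388 in muscle. Pparg, the regulator of fat cell differentiation, stood at 158 and 4.01. Among the adipokine genes, Cfd (adipsin) stood at 336 in BAT and 237 in muscle against 1963 in VAT and 2241 in SCAT. Lep (leptin) stood at 2.02 in BAT and 3.65 in muscle against 51.6 and 26.6 in the white depots. Retn (resistin) stood at 19.5 and 9.91 against 206 and 82.0. These 3 white fat products were therefore within 4-fold between BAT and muscle and highest in the white depots.

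Adipocyte transcripts were present in the muscle library. Over the 21 adipocyte genes with at least 10 FPKM in BAT, muscle held a median of 6.24% of the BAT level, between 0.685% and 102%. Kidney held 4.41%, liver 1.59% and cortex 0.468%, and the white depots 46.6% (VAT) and 26.1% (SCAT). None of the 26 was listed at 0 in muscle, and their summed level was 1519 FPKM there against 17885 in BAT. Adipoq (adiponectin), a defining product of fat cells, stood at 14.1 in muscle against 258 in BAT and 330.2 in VAT. The part of fat tissue in the muscle library was not tested.

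Fatty acid synthesis had the largest median ratio among the lists of metabolic enzymes. Of 14 measured genes, 10 were 4-fold higher in BAT and none in muscle, against 7.18% and 10.3% of all tested genes. The median log2 ratio was 4.34, and 2.95 with loci of the annotated strand alone. Fasn, the fatty acid synthase, stood at 427 FPKM in BAT and 2.25 in muscle, and at 16.1 in VAT and 4.07 in SCAT. Acaca, which makes malonyl-CoA for synthesis, stood at 229 and 6.11. Acly, which supplies cytosolic acetyl-CoA, stood at 80.8 and 4.81, and Slc25a1, the mitochondrial citrate exporter, at 125 and 2.23. These enzymes of the route from citrate to palmitate were all higher in BAT than in both white depots as well. By contrast Acacb, whose malonyl-CoA restrains carnitine palmitoyltransferase 1, stood at 66.6 in BAT and 51.6 in muscle. Mlxipl, a carbohydrate-responsive transcription factor, stood at 10.9 and 9.15. Scd1 has no usable value in BAT, because its zeros carry the status LOWDATA.

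Of 33 measured genes of fatty acid uptake and oxidation, 32 had more in BAT, against 6521 of all 14141 tested genes. The excess was at least 4-fold for 20 of them, against 7.18% of all tested genes. The median log2 ratio was 2.24, between -1.34 and 7.50. The trifunctional protein subunits stood at 1487 FPKM in BAT and 239 in muscle (Hadha) and at 2952 and 440 (Hadhb, whose locus is merged with Garem2). The acyl-CoA dehydrogenases stood at 1031 and 199 (Acadvl), 639 and 132 (Acadl), 1183 and 276 (Acadm) and 187 and 39.3 (Acads), so that their log2 ratios ran from 2.10 to 2.38. The carnitine shuttle was graded: Cpt1b had a log2 ratio of 1.40, Slc25a20, the carnitine carrier, 2.36, and Cpt2 2.09. Plin5, which joins lipid droplets to mitochondria, stood at 102 and 11.8. Slc27a2 and Acsl5, which activate fatty acids, had larger log2 ratios of 7.50 and 5.39, and both were at least as high in liver as in BAT. Ucp3 was the 1 gene of the 33 with more in muscle than in BAT, at 64.1 against 25.2, and a non-coding RNA (Gm10603) is annotated on its opposite strand.

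The tricarboxylic acid cycle and the respiratory chain lay mostly within 4-fold, as did 82.6% of all tested genes. Of 31 measured genes of the cycle and pyruvate dehydrogenase, 28 lay within 4-fold. More in BAT than in muscle was found for 27, against 6521 of all 14141 tested genes. The median log2 ratio was 0.93, and the median BAT level was 191% of that in muscle. Cs (citrate synthase) stood at 190.4 FPKM in BAT and 146 in muscle, and Mdh2 at 106 and 113. The exceptions were Pcx, pyruvate carboxylase, higher in BAT (73.9 against 18.1), and the phosphatases of pyruvate dehydrogenase. Pdp1 was higher in muscle (4.28 against 0.309). Pdp2 was higher in BAT, at 22.0 against 2.90, on a locus opposite its annotated strand. On that strand Pdp2 stood at 0.764 and 0.155, with a log2 ratio of 1.76, within 4-fold. Of 91 measured nuclear genes of oxidative phosphorylation, 86 lay within 4-fold and the median log2 ratio was 0.49. By complex, the medians were 0.30 for complex I (46 genes, all within 4-fold), 0.41 for complex II (4 genes), 0.75 for complex III (10 genes), 0.98 for complex IV (15 genes) and 0.00 for complex V (16 genes). Complexes II and III were higher in BAT in each of their genes. Complex V was split evenly, with 8 of 16 genes higher in BAT.

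Over all tested genes BAT was 4-fold above both VAT and SCAT for 9.38%, and muscle for 15.6%. BAT passed this limit for 42 of the 46 complex I genes, all 4 of complex II, all 10 of complex III, 12 of the 15 of complex IV and 11 of the 16 of complex V. The counts for muscle were 34, 4, 9, 9 and 16. Of the 78 mitochondrial ribosomal protein genes, BAT was above both depots by this limit for 43 and muscle for 21. Mitochondrial ribosomal protein genes lay within 4-fold for 77 of 78, with a median log2 ratio of 0.32.

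**Figure D2:**
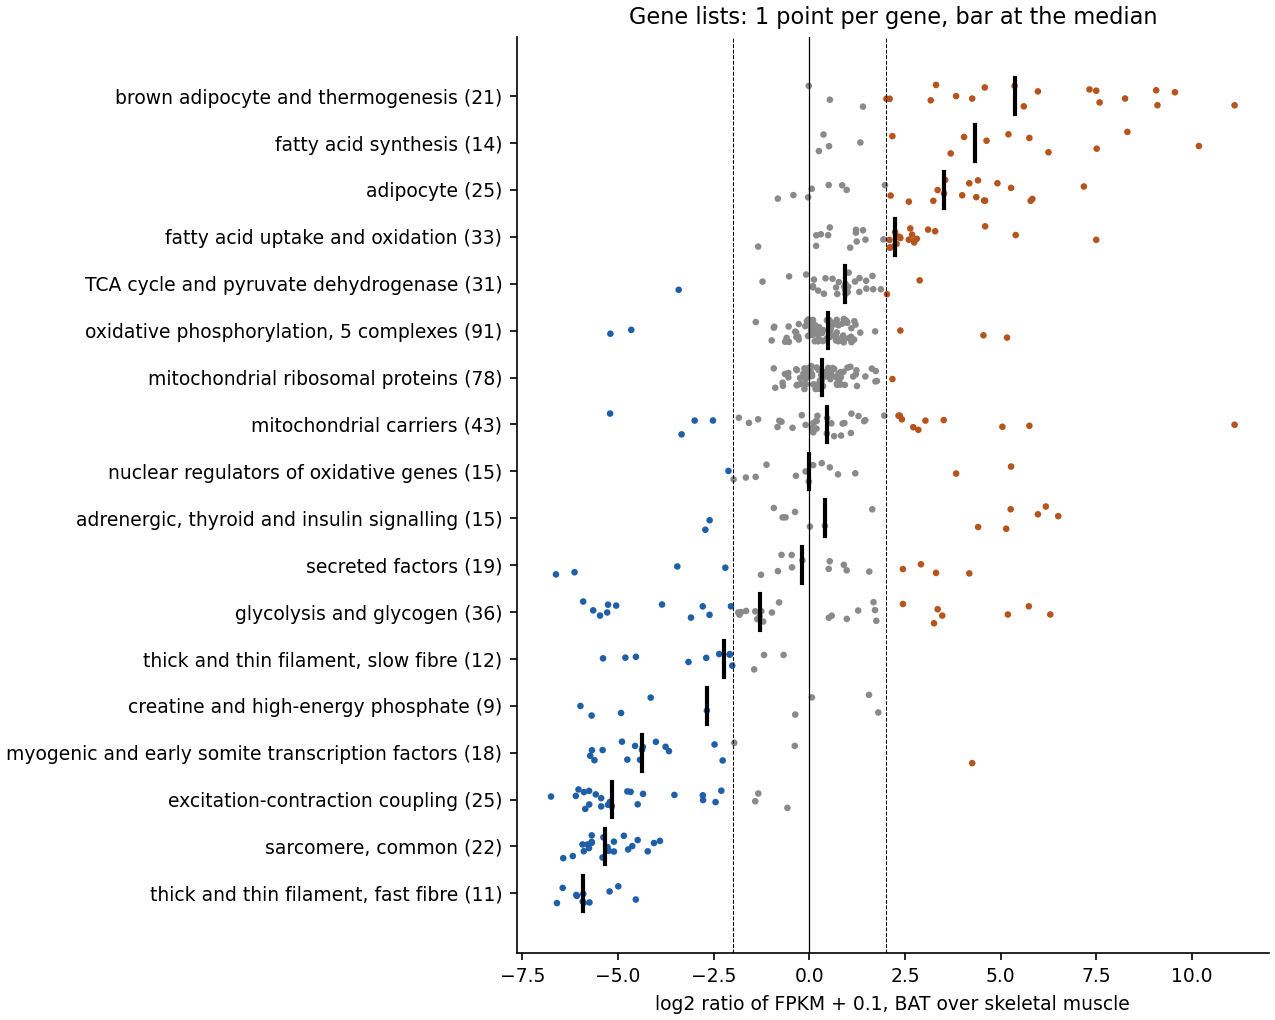
Log2 ratio of FPKM plus 0.1 in BAT over skeletal muscle (x axis) for the genes of 18 lists, 1 point per gene with the number measured in brackets and a bar at the list's median. Orange points are 4-fold higher in BAT, blue 4-fold higher in muscle (dashed lines). Thermogenic and lipogenic lists lie to the right, contractile lists to the left, and the 91 oxidative phosphorylation genes cluster near a median of 0.49 with 5 genes outside the dashed lines.

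The 5 oxidative phosphorylation genes outside 4-fold were all isoforms of a subunit with more than 1 gene. They were Cox6a1, Cox8a and Cox6b2 on the BAT side, the last at 0.421 FPKM in muscle with a log2 ratio of 2.38, and Cox6a2 and Atp5g1 on the muscle side. Cytochrome c oxidase subunit 6A is made from Cox6a1 in most tissues and from Cox6a2 in heart and skeletal muscle. Cox6a1 stood at 508 FPKM in BAT and 14.1 in muscle, and Cox6a2 at 31.7 and 802. Cox6a2 thus gave 98.3% of the pair's FPKM in muscle and 5.87% in BAT. Subunit 7A was alike in both tissues. Cox7a1, its muscle form, gave 72.1% of the Cox7a1 and Cox7a2 sum in BAT and 71.5% in muscle, against 9.62% in VAT and 10.4% in SCAT. Cox8b gave 96.3% of the Cox8a and Cox8b sum in BAT and 99.6% in muscle, and also 83.0% in SCAT and 44.1% in VAT. The locus used for Cox8b runs against the annotation, and with the annotated strand alone these shares were 79.3%, 97.0%, 33.4% and 7.91%. Cox8a, the form of most tissues, still stood at 436 FPKM in BAT and 18.6 in muscle, a log2 ratio of 4.55.

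ATP synthase subunit c, whose 3 genes all had less in BAT, is encoded by Atp5g1, Atp5g2 and Atp5g3, which give the same mature protein, and a low level of the first is a known feature of brown fat, whose ATP synthase content is small. Atp5g1 stood at 24.5 FPKM in BAT and 907 in muscle, the lowest log2 ratio of the 91 genes (-5.20). BAT was also below liver (141), kidney (188), VAT (32.8) and cortex (69.5) and above SCAT (12.4). Atp5g2 and Atp5g3 stood at 122 and 144 in BAT and at 184 and 382 in muscle. Atp5g1 gave 8.43% of the sum of the 3 genes in BAT and 61.6% in muscle. Atp5a1 and Atp5b, the α and β subunits of the enzyme, stood at 1117 and 2240.3 in BAT and 978 and 1240.0 in muscle, and Atp5c1 and Atp5j, further subunits, at 575 and 163 in BAT and 835 and 308 in muscle. The translocator that exchanges ADP for ATP has several genes. Slc25a4 stood at 118 in BAT and 1196 in muscle, and Slc25a5 at 119 and 16.4. Among the 43 measured mitochondrial carriers, 10 were 4-fold higher in BAT and 4 in muscle, against 7.18% and 10.3% of all tested genes. The lowest ratio was that of Slc25a12, the aspartate-glutamate carrier of excitable tissues, at 194 in muscle and 5.15 in BAT.

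Several enzymes of glycolysis and glycogen use had one form higher in BAT and another in muscle. Of 36 measured genes, 7 were 4-fold higher in BAT, 11 in muscle and 18 in neither, against 7.18%, 10.3% and 82.6% of all tested genes. The median log2 ratio was -1.28. For phosphofructokinase, Pfkl stood at 169 FPKM in BAT and 2.05 in muscle, and Pfkm at 34.6 and 1149. For glycogen phosphorylase, Pygl stood at 98.4 and 1.75, and Pygm at 39.5 and 2387. For phosphoglycerate mutase, Pgam1 stood at 104 and 2.77, and Pgam2 at 12.4 and 557. For enolase, Eno1 stood at 460.0 and 41.4, and Eno3 (locus merged with Rnf167) at 75.1 and 2937. The muscle form made up at least 98.6% of the summed FPKM of its family in muscle for these 4 enzymes, and 14.6%, 25.7%, 10.6% and 14.0% in BAT. The pairs were put together after their values had been seen, and reads can be split between such related copies.

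Other steps of the pathway had the same leading form in both tissues. Aldoa was the highest named protein-coding gene of muscle, at 10537 FPKM, and stood at 1525 in BAT, more than in the other 5 tissues, where the highest was 302. With the muscle value first, Gapdh stood at 3164 and 518, Pkm at 1308 and 566, and Ldha at 1331 and 422. Ldhb, the lactate dehydrogenase subunit of oxidative tissues, stood at 166 in BAT and 51.8 in muscle. Gpd1 and Gpd2, the glycerol phosphate dehydrogenases, were higher in BAT, at 865 and 187 against 84.7 and 57.0. Of 9 measured genes of creatine and high-energy phosphate metabolism, 5 were 4-fold higher in muscle and none in BAT, against 10.3% and 7.18% of all tested genes, while 3 had more in BAT within 4-fold. Ckmt2, the mitochondrial creatine kinase of muscle, stood at 826 in muscle and 27.1 in BAT, and Slc6a8, the creatine transporter, at 48.3 and 7.45. Ckb, the form described in brown fat, stood at 9.81 in BAT and 2.75 in muscle.

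**Figure D3:**
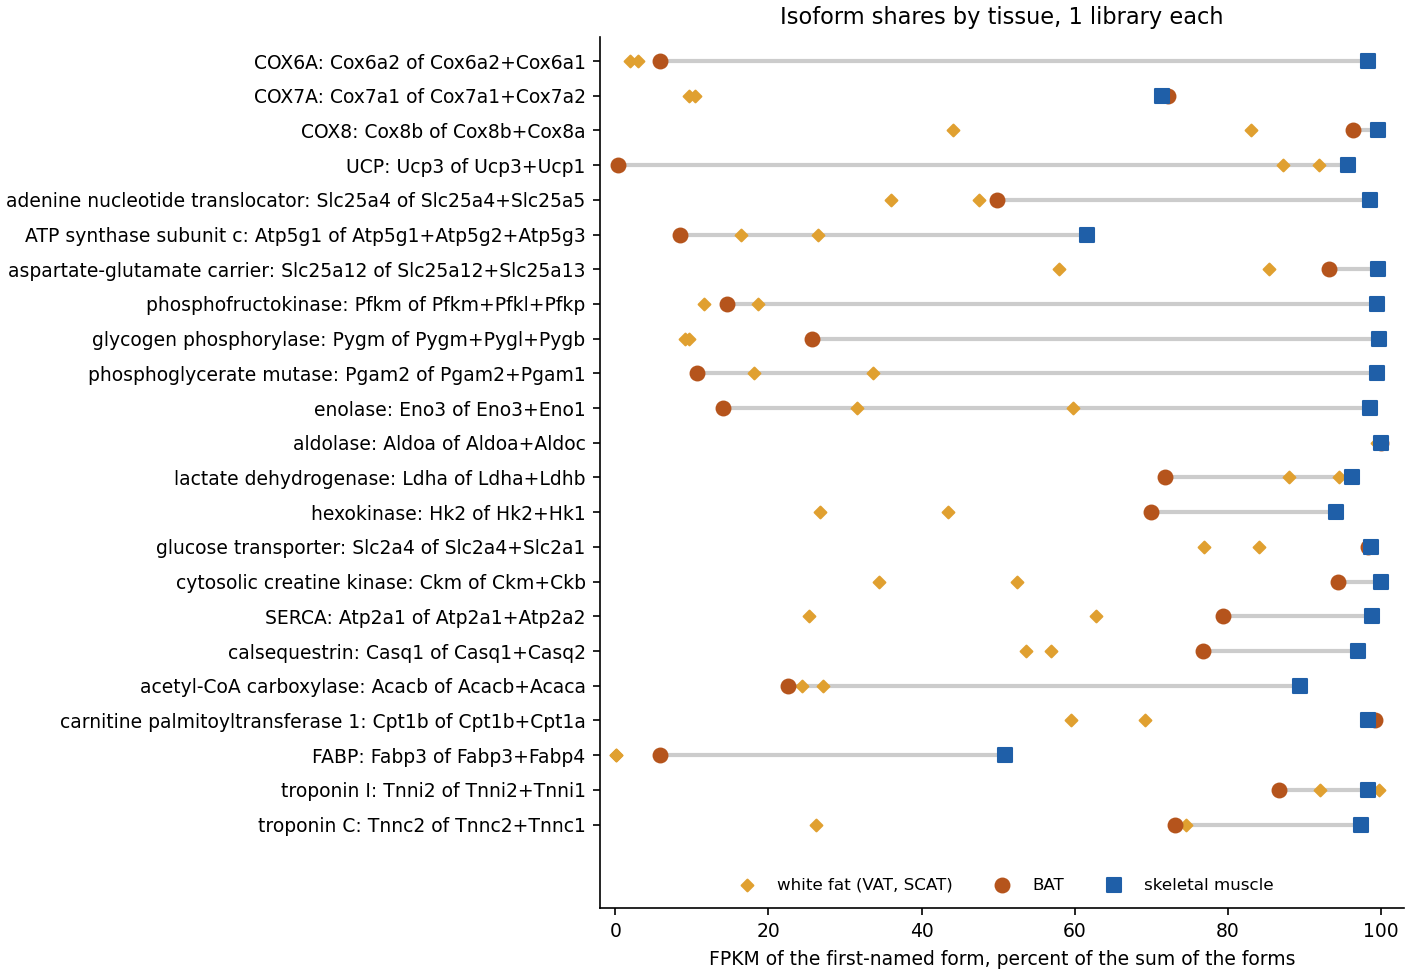
Share of the first-named form in the summed FPKM of the forms given beside it (x axis, percent) in BAT (circles), skeletal muscle (squares) and the white depots VAT and SCAT (diamonds), 1 library each. For Cox7a1, Slc2a4 and Cpt1b the circle and the square lie together and right of the diamonds. For Cox6a2, Pfkm, Pygm, Pgam2 and Eno3 they lie at opposite sides, with muscle at 98.3% or more.

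On the muscle side, the 10 largest ratios among protein-coding genes with at least 10 FPKM were those of genes nearly without signal in BAT. Gm19684, whose highest value was 116 in liver, and Mettl11b were listed at 0 in BAT and stood at 26.5 and 21.0 FPKM in muscle. Tceal7 stood at 49.2 in muscle and 0.0869 in BAT (log2 ratio -8.04). Mss51, a mitochondrial protein of muscle, stood at 43.2 and 0.0780 (-7.93), and Ankrd1, a stress-responsive repeat protein of striated muscle, at 53.9 and 0.256 (-7.24). Igfn1 (-7.31), Ky (-7.18), 1700001O22Rik (-6.93), Gadl1 (-6.89) and Cacng1, the γ subunit of the muscle calcium channel (-6.75), completed the group. With loci of the annotated strand alone, the log2 ratios of Tceal7 and Gadl1 were closer to 0, at -4.62 and -2.002. Except for Gm19684, none of the 10 passed 1.71 FPKM in any tissue but muscle.

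For contractile genes the values are given with muscle first. All 11 measured fast-fibre filament genes were 4-fold higher in muscle, against 10.3% of all tested genes, with a median log2 ratio of -5.91. Tnni2, fast troponin I, stood at 7697 FPKM in muscle and 206 in BAT. Mylpf, the fast regulatory light chain, stood at 5595 and 81.9, and Myh1, the heavy chain of type IIx fibres, at 1175 and 12.0. Common sarcomere genes were higher in muscle in 22 of 22, with a median of -5.33. Neb, the giant thin filament protein nebulin, stood at 1861 and 34.2, and Des, the intermediate filament desmin, at 817 and 43.6. Excitation-contraction coupling genes were higher in 22 of 25, with a median of -5.17. Atp2a1, the calcium pump of fast fibres, stood at 3995 and 67.2, and Ryr1, the calcium release channel, at 230.2 and 3.41. Myh4 and Ttn have no usable value in muscle, and Acta1 does not enter the comparison. The 3 coupling genes within 4-fold were Chrnb1 (16.8 in muscle, 11.3 in BAT), Atp2a2, the pump of slow fibres (46.8 and 17.5), and Sln, sarcolipin, a regulator of these pumps (12.3 and 4.80). The locus used for Sln lies opposite its annotated strand, which gave 1.43 in muscle and 0.270 in BAT, more than 4-fold apart.

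Slow-fibre genes had a median log2 ratio of -2.22, between -5.40 and -0.67, and 9 of 12 were 4-fold higher in muscle, against 10.3% of all tested genes. The 9 include Myl2, whose log2 ratio of -2.02 was -1.94 under median ratio scaling. Myl2, the slow and cardiac regulatory light chain, stood at 335 FPKM in muscle and 82.7 in BAT, and no other tissue passed 0.297. Tnni1, slow troponin I, stood at 135 and 31.7, with at most 0.547 elsewhere, and at 102 and 29.0 on its annotated strand, within 4-fold. Tnnt1, slow troponin T, stood at 102 and 37.3. Tnnc1, slow troponin C, stood at 121 and 28.4, and Myl3, a slow light chain, stood at 104 in muscle with a log2 ratio of -2.70. Myh7, the slow heavy chain, stood at 42.9 and 8.29. Mybpc1, Ankrd2 and Csrp3 had ratios closer to those of the fast genes, at 541, 328 and 701 in muscle against 23.2, 11.6 and 16.6 in BAT.

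Set against muscle, the BAT level of the 11 fast genes had a median of 1.66%, between 1.02% and 4.27%. The 22 common sarcomere genes had a median of 2.44% and the 22 coupling genes with at least 10 FPKM in muscle a median of 2.49%. The 12 slow genes had a median of 21.4%, between 2.36% and 62.5%. In VAT the same medians were 0.155% for the fast genes and 0.0652% for the slow ones, and in SCAT 0.0304% and 0.0627%. Myf6, Myod1 and Myog, transcription factors of muscle fibres and their precursors, stood at 48.8, 7.97 and 7.31 in muscle and at 0.896, 0.0904 and 0.262 in BAT. The log2 ratios of Myod1 and Myog were -5.41 and -4.35, and -3.67 and -2.72 with loci of the annotated strand alone. Pax7, the marker of satellite cells, was listed at 0 in BAT and stood at 1.17 in muscle. Over the 70 measured genes of the sarcomere and coupling lists, which leave out Myh4 and Ttn, the summed level was 2140 FPKM in BAT, 82864 in muscle, 324 in VAT and 224 in SCAT. None of the lists' genes was listed at 0 in BAT. The part of skeletal muscle fibres in the BAT library was not tested.

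**Figure D4:**
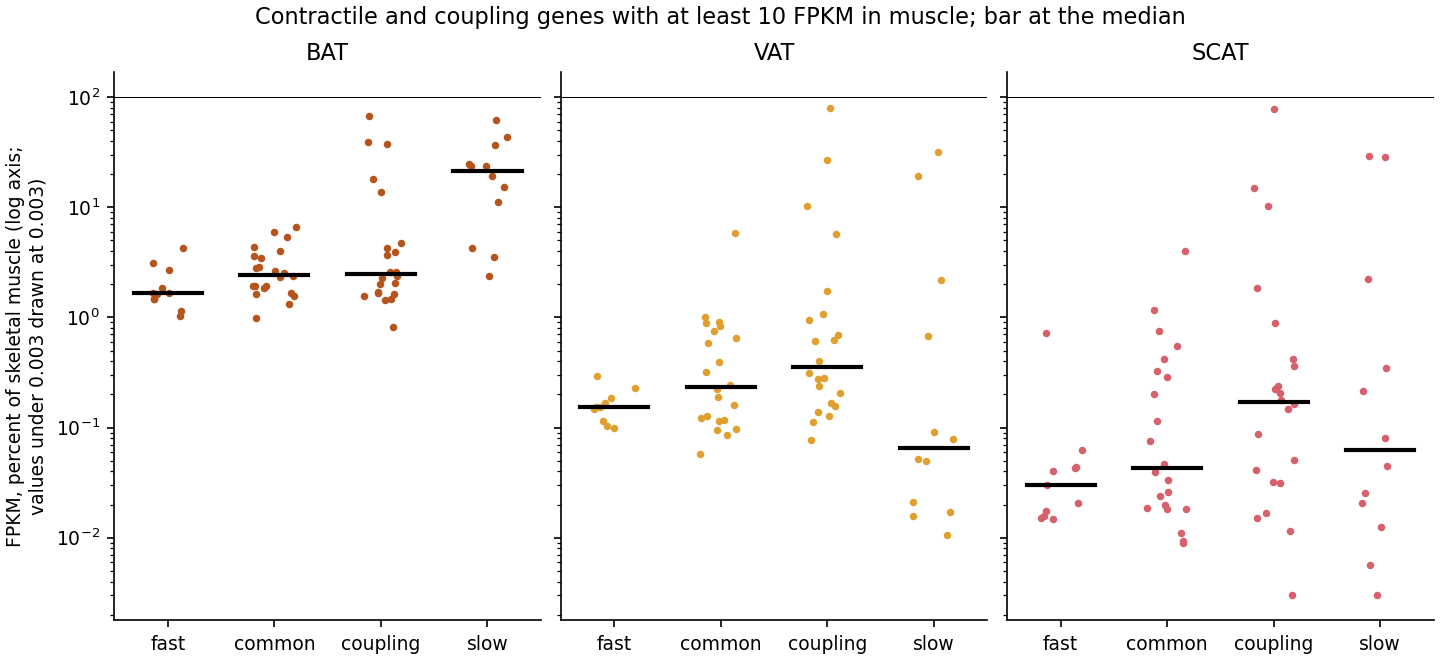
FPKM in BAT, VAT and SCAT as a percentage of FPKM in skeletal muscle (y axis, log scale) for contractile and coupling genes with at least 10 FPKM in muscle, 1 point per gene and a bar at the median. In BAT the fast, common and coupling medians lie between 1.66% and 2.49% and the slow median at 21.4%. In the white depots the slow median is under 0.07%.

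Transcription factors of the somite and muscle lineage were mostly higher in muscle (values with muscle first). Of 18 measured, 15 were 4-fold higher in muscle and 1 (Zic1) in BAT, against 10.3% and 7.18% of all tested genes, and the median log2 ratio was -4.37, or -3.53 with loci of the annotated strand alone. Tbx15, which is expressed in fat and glycolytic muscle, stood at 55.9 and 2.28 FPKM, and Lbx1, of migrating muscle precursors, at 22.4 and 0.323, with a log2 ratio of -5.73 that was -3.53 on the annotated strand. Mef2a stood at 16.7 and 4.19 and Meox2 at 2.75 and 2.08, and both lay within 4-fold.

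Of the 14116 genes with a value in all 7 tissues, 147 (1.04%) were high in both. They were chosen by their values in these libraries, so the levels below are a description. Within them, 40 lay within 4-fold of each other, 105 were 4-fold higher in muscle and 2 in BAT (2310069B03Rik and Mir365-1). Of the 70 measured members of the 4 sarcomere and coupling lists, 43 were among them. Of the 73 genes with at least 10 FPKM in both tissues, 30 lay within 4-fold and 43 were higher in muscle, and for 31 of the 73 the BAT level was under 5% of that in muscle. The highest of the other 5 tissues was most often VAT, in 83 of the 147. Among protein-coding genes that reached 10 FPKM in both tissues, just inside the limit lay Rhoq and Ppp1r14b, with log2 margins of 2.05 and 2.09 over the highest other tissue, and just outside it Acyp2 (1.97), Cox5a (1.94) and Bcl2l13 (1.89).

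By the size of this margin, slow-fibre genes led. Myl2 had a log2 margin of 7.70, Myoz2, a Z-disc protein of slow fibres, 5.90, and Tnni1 5.62. Cox7a1 (5.29) and Cox8b (5.19) stood among them. Mybpc1 (5.29), Ckmt2 (5.27), Ankrd2 (5.05) and Myh2, the heavy chain of type IIa fibres (5.04), followed, with H19 (5.04), an imprinted non-coding RNA, at 207 FPKM in muscle, 23.6 in BAT and at most 0.624 elsewhere. Myot, Asb5, Tnnt1 and Txlnb had margins of 4.83, 4.75, 4.67 and 4.49. The remaining member, Gm27483, shares its locus with Gm27786.

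Of the 191 measured members of the lists of oxidative phosphorylation, fatty acid uptake and oxidation, the tricarboxylic acid cycle and mitochondrial carriers, 8 (4.19%) were among the 147, against 1.04% of all genes. Cox8b was the highest named protein-coding gene in BAT, at 11478 FPKM, and stood at 5108 in muscle, with SCAT next at 140.1. The locus used for it runs antisense to the annotation, and the sense locus gave 1675 in BAT and 591 in muscle. Cox7a1 stood at 1780.0 in BAT and 872 in muscle, with kidney next at 22.2. Fabp3, the fatty acid binding protein of heart and muscle, stood at 583 and 403, with kidney next at 28.6 and VAT at 1.04. The log2 ratios of these 3 genes were 1.17, 1.03 and 0.53.

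Further genes of the 147 within 4-fold, picked for their roles after their values were seen, follow. Pdk4, the kinase that shuts off pyruvate dehydrogenase, stood at 796 FPKM in BAT and 1151 in muscle, with VAT next at 75.7. Cpt1b, the gate of fatty acid entry into mitochondria, stood at 606 and 230 on a locus merged with Chkb. Acacb and Cs, given above, had log2 ratios of 0.37 and 0.38. Hk2, the insulin-responsive hexokinase, stood at 17.1 in BAT and 33.9 in muscle and at most 2.16 elsewhere. Slc2a4, the insulin-responsive glucose transporter GLUT4, stood at 54.2 and 187, against 6.60 in VAT and 4.69 in SCAT. Ucp3 stood at 25.2 and 64.1, against 3.54 in VAT and under 0.22 in liver, kidney and cortex.

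Coq8a and Coq10a, which act in the synthesis and use of coenzyme Q, stood at 377 and 70.0 FPKM in BAT and at 382 and 143 in muscle. Rxrg, the retinoid X receptor γ, stood at 11.8 and 22.5. Phospho1, a phosphatase of phosphocholine, stood at 176 and 71.5 on a locus merged with Zfp652. Gyg, the primer of glycogen synthesis, stood at 45.2 and 164.

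**Figure D5:**
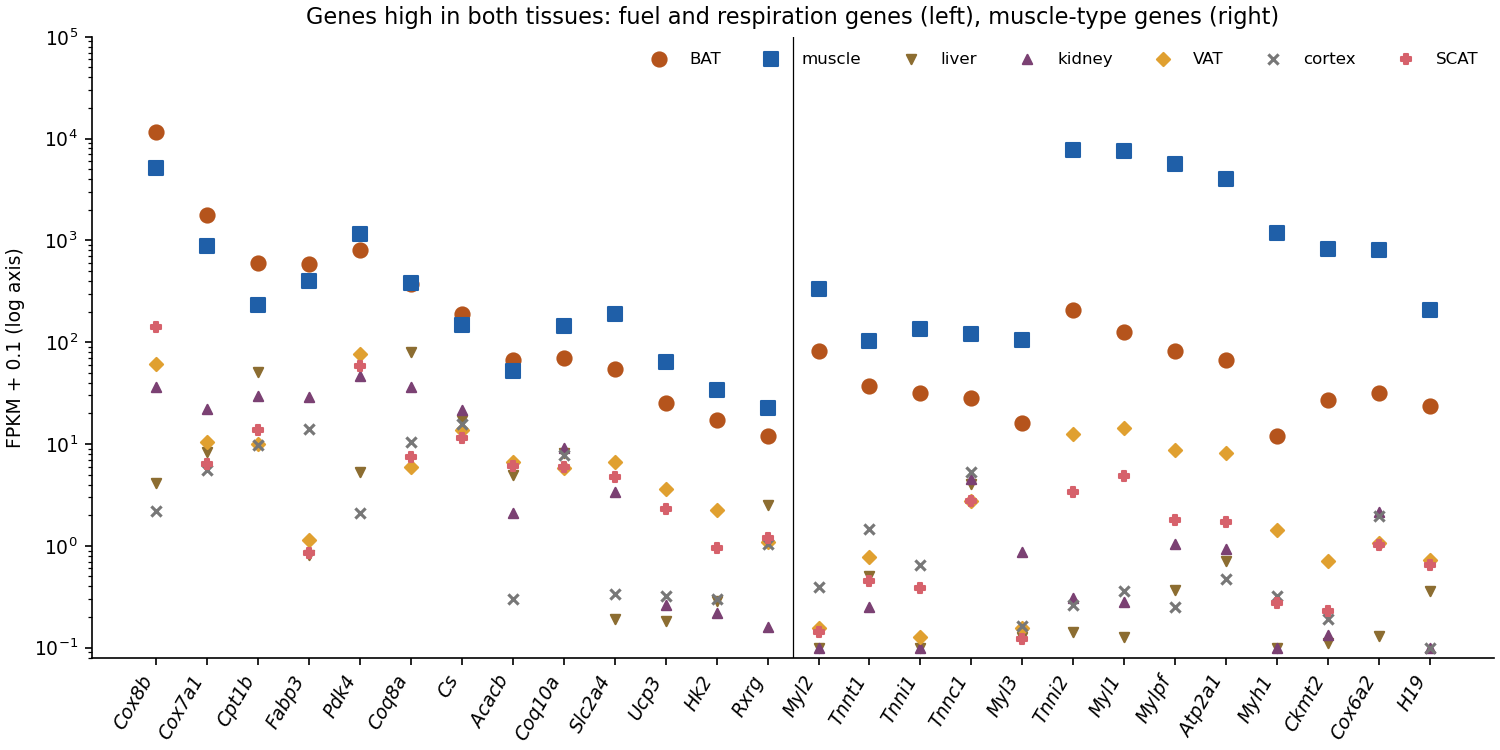
FPKM plus 0.1 (y axis, log scale) in the 7 tissues for 26 of the 147 genes high in both BAT and muscle, chosen for their roles after their values had been seen. In the left panel, genes of fuel use and respiration, BAT (circles) and muscle (squares) lie within 4-fold. In the right panel, muscle-type genes, muscle lies above BAT, by least for the slow-fibre genes Myl2, Tnnt1, Tnni1 and Tnnc1.

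When 1.66% of the muscle FPKM was taken off each BAT value, an alternative added after the data had been seen, 84 of the 147 genes were still high in both. The share is the median of the fast-fibre genes, so the loss of such genes follows from it.

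Promoter sequence is shown for the marker of each tissue and for Cox7a1, Cox8b and Fabp3. The latter were the shared oxidative genes within 4-fold with the largest margins. The 250 bases before the start of each gene in RefSeq (GRCm38.p6) are given 5′ to 3′ in the gene's direction, with CANNTG in capitals. The RefSeq start of Ckm lies inside its GENCODE span given above, so its window does too. The windows of Cox7a1 and Fabp3 end past their GENCODE starts, at 30184144 and 130308595. This motif, the E-box, reads the same on both strands and is bound by basic helix-loop-helix factors such as those of the muscle lineage. The windows are chr8:83290098-83290347 (Ucp1, plus strand), chr7:19410844-19411093 (Ckm, plus), chr7:30183921-30184170 (Cox7a1, plus), chr7:140900447-140900696 (Cox8b, minus) and chr4:130308488-130308737 (Fabp3, plus).
Ucp1: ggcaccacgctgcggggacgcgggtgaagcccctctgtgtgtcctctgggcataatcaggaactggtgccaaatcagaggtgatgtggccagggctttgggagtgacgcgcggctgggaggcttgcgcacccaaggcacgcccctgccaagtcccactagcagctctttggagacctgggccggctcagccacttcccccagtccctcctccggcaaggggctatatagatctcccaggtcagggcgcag
Ckm: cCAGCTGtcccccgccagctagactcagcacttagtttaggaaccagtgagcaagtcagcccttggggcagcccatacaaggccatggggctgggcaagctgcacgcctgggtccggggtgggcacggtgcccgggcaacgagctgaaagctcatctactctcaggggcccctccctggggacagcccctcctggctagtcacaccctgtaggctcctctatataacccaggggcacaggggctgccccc
Cox7a1: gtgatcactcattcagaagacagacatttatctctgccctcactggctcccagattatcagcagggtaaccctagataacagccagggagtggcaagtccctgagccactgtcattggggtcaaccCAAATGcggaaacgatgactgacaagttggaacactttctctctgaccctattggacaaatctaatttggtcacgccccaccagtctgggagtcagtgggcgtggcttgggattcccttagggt
Cox8b: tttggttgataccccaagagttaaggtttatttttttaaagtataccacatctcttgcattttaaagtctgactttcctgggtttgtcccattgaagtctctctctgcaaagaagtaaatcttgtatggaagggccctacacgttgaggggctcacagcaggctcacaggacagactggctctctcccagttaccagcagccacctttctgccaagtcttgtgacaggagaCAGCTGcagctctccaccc
Fabp3: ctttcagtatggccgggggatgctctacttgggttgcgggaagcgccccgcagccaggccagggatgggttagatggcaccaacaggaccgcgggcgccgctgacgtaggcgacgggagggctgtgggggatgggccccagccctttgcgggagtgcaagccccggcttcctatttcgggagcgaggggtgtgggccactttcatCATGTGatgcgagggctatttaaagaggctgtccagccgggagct

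Ucp1 had no CANNTG in this window and the other 4 had 1 each. The motif AAGGTCA, which estrogen-related receptors bind, was searched on both strands and is in none of the 5 windows. Of the 147 shared genes, 94 matched a promoter of the table. CANNTG was in 83.0% of them, against 62.6% of the 9526 matched genes of the whole comparison and 69.3% of all 27025 promoters. It was in 77.8% of the matched shared genes within 4-fold and in 85.1% of those not within 4-fold. AAGGTCA was in 4 of the 94 (4.26%), against 3.84% and 4.70%, and those within 4-fold that held it were Coq10a and Rxrg. A match describes these letters only, and no match says nothing of the factor.

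Of 15 measured nuclear regulators of oxidative genes, 12 lay within 4-fold, against 82.6% of all tested genes. Their median log2 ratio was -0.02, between -2.12 and 5.27. Esrra, an estrogen-related receptor, stood at 33.3 FPKM in BAT and 26.6 in muscle, and Tfam, which copies and packs mitochondrial DNA, at 37.6 and 35.2. Pparg and Ppara, a regulator of fatty acid oxidation (45.6 and 3.10), were higher in BAT, and Rxra (9.10 and 39.8) in muscle.

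Of 15 measured genes of adrenergic, thyroid and insulin signalling, 6 were 4-fold higher in BAT, 2 in muscle and 7 in neither, against 7.18%, 10.3% and 82.6% of all tested genes. Adrb3, the β3 receptor of adipocytes, stood at 25.4 FPKM in BAT and 0.306 in muscle, and Adrb1 at 2.91 and 0.0418 on a locus opposite its annotated strand, on which it was under 0.1 in both. Adcy3, an adenylate cyclase, stood at 73.2 and 0.912, and Prkar2b, a regulatory subunit of protein kinase A, at 373 and 4.01. Pde3b, which degrades cAMP in response to insulin, stood at 134 and 3.70. Irs1, a substrate of the insulin receptor, was 4-fold higher in muscle. Insr, the insulin receptor, stood at 12.2 and 18.8, and Thra, a thyroid hormone receptor, at 27.7 and 20.9. Dio2, which activates thyroid hormone, was under 1 FPKM in both.

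Of 19 measured secreted factors, 4 were 4-fold higher in BAT, 4 in muscle and 11 in neither, against 7.18%, 10.3% and 82.6% of all tested genes. Nrg4, a factor released by brown fat, stood at 70.7 FPKM in BAT and 7.04 in muscle, and Angptl4, an inhibitor of lipoprotein lipase, at 47.2 and 8.60. Mstn (myostatin), which limits muscle growth, stood at 56.6 in muscle and 0.474 in BAT, and Fndc5, the precursor of irisin, at 36.6 and 3.25. Vegfa, the endothelial growth factor, was close, at 79.8 in BAT and 42.7 in muscle.

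Markers of other cells lay mostly within 4-fold in the endothelial, macrophage, fibroblast, nerve, smooth muscle and erythroid lists, as did 82.6% of all tested genes. All 8 endothelial markers were higher in BAT, against 6521 of all 14141 tested genes. Their median log2 ratio was 0.52, and 7 lay within 4-fold. Pecam1 stood at 26.7 and 14.3, and the exception, Egfl7, shares its locus with Fam69b and Gm20532. Macrophage markers had a median of 0.12, smooth muscle and pericyte markers -0.34, nerve markers -0.71 and fibroblast markers -1.65. In each of these 4 lists 1 gene was 4-fold higher in muscle. Those were Cd163 (1.45 FPKM in BAT and 6.47 in muscle), Lmod1 (0.415 and 15.1), Th (listed at 0 and 1.502) and Col1a1 (3.90 and 17.9). With a pseudocount of 1 FPKM, Cd163, Th and Col1a1 lay within 4-fold, and Cd163 did so under median ratio scaling too. Haemoglobin and other erythroid genes had a median of 1.14, with all 5 within 4-fold. Tendon markers were higher in muscle in 3 of 3 measured, with Thbs4 at 13.9 in muscle and 0.366 in BAT, and satellite cell markers in 3 of 4, against 10.3% of all tested genes. The median of the satellite cell markers was -4.05, and -1.23 with loci of the annotated strand alone. None of the 8 lymphocyte markers reached 1 FPKM in either tissue. The part of these cells in the ratios was not tested.

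Long non-coding RNAs were counted apart. Of 1156 measured, 92 (7.96%) were 4-fold higher in BAT and 206 (17.8%) in muscle, against 6.95% and 9.21% of 11677 protein-coding genes. Lncbate1, a long non-coding RNA named for brown fat, stood at 30.8 FPKM in BAT and 0.363 in muscle, with no other tissue above 1.83, and is annotated opposite Zfhx3. Among those that reached 10 FPKM in BAT, the largest ratio was that of Gm15241 (13.2 and listed at 0), which lies opposite Adgrg2. Gm10032 stood at 22.8 and 0.627, with no other tissue above 0.221. In muscle, several of the largest ratios belonged to RNAs annotated opposite a muscle gene. Gm13601, opposite Xirp2, stood at 2431 in muscle and 27.7 in BAT, Gm17224, opposite Casq1, at 141 and 1.88, and Gm26604, opposite Ryr1, at 49.3 and 0.559. By the inferred strand, 24.7% of all matches between a name and a locus in this table run against the annotation. Such RNAs therefore cannot be told apart from their partners. These RNAs were chosen after their values had been seen.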

How the data were processed

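Total RNA of 7 tissues, 1 library each, was depleted of rRNA and sequenced as strand-specific libraries. The submitters' processing notes name Bowtie2 2.2.9, STAR 2.6.0c, Cufflinks 2.2.1 and Cuffdiff, with mm10 and GRCm38. The authors deposited a Cuffdiff table of FPKM values per assembled locus for every pair of tissues. Its fold change, test statistic, p, q and significance columns were not used. FPKM carries no read counts, so the depth of each library is unknown and no interval is given.

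Here gene names joined by commas were split, each name took its locus with the highest FPKM, loci of status FAIL were dropped and zeros of status LOWDATA were set missing. The strand of each locus was inferred from the order of loci along its chromosome. Log2 ratios used a pseudocount of 0.1 FPKM, a minimum of 1 FPKM and a 4-fold limit. Scripts used Python 3.11.15, pandas 2.3.3, NumPy 2.4.6 and matplotlib 3.10.9 and were tested on simulated data. Named genes were the 10 protein-coding genes with the largest ratio in each direction at 10 FPKM or more, the 15 genes high in both with the largest margin at 10 FPKM or more in both, and members of gene lists. Any other gene was chosen after its values were seen. The members and lists were chosen with earlier results of these data known. Alternatives varied the pseudocount, minimum, fold limit, scaling, choice of locus and tissues. A single short locus without a name held 95.3% of the FPKM sum in BAT and 97.2% in muscle, and was not used. Its share was 94.6% in liver, 93.5% in kidney, 99.7% in cortex, 87.3% in VAT and 19.2% in SCAT. Acsl1 and Col1a2 had the status FAIL. Some members of the lists are counted but not reported here by name.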

Additional observations from a re-analysis of the deposited data

How the results depend on the processing

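Of the 641 log2 ratios of named and listed genes, 223 were past 4-fold, and none of these changed sign with a pseudocount of 1 FPKM, median ratio scaling, the sum over all loci of a name or the annotated strand alone, the last chosen after seeing the data. Of the 223, these left 23, 3, 3 and 5 within 4-fold. On the annotated strand 36 ratios moved by over 1.5 times, 32 of them towards 0, among them Tceal7 (-4.62) and Kcnk3 (5.19). With 1 FPKM the losses included Zic1 (1.62), Adrb1 (1.91), Pax7 (-1.12) and Th (-1.32), and on the annotated strand Scd2 (1.63) and Adrb1 (0.29). Of 32 list medians, 12 were past 4-fold, and none of these changed sign with a pseudocount of 1 FPKM, no minimum, median ratio scaling or the annotated strand alone. Of the 12, satellite cell markers were lost with 1 FPKM and on the annotated strand and creatine and high-energy phosphate genes with no minimum. The counts at the main setting were 1016 genes higher in BAT, 1450 higher in muscle and 147 high in both. A pseudocount of 1 FPKM gave 594, 911 and 83. A 2-fold limit gave 2528, 3229 and 495, and an 8-fold limit 499, 885 and 76. A minimum of 5 FPKM gave 96 genes high in both, and leaving out the white depots gave 283. Taking the median fast-fibre share of muscle off BAT, an alternative chosen after seeing the data, gave 84 genes high in both. In all other alternatives these counts stayed within 1.5 times their main value. Before the pseudocount was added, median ratio scaling shifted log2 ratios of BAT over muscle by 0.08, of BAT over VAT and SCAT by -0.38 and -0.46, and of muscle over VAT and SCAT by -0.46 and -0.54. No paired analysis was possible because there is a single library for each tissue. With 1 library per tissue the spread between animals is unknown, and with FPKM alone the counting error is too. Where loci of both strands carry a name, signal of a gene and its antisense partner cannot be told apart.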
